A study of Mus musculus with 20 samples.

Results

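The comparison described here set splenic natural killer (NK) cells of 5 mice given selenium alone against those of 5 control mice given water. These are 10 of the 20 arrays of the series. All mice were male C57BL/6 animals dosed daily by gavage for 14 days, selenium at 1.3 mg/kg. The ages and the chemical form of selenium are not given in the sources used here. The other 10 mice received ptaquiloside at 5.3 mg/kg, the toxin of bracken fern, or ptaquiloside together with selenium at the same doses, and enter only the last comparison. Cells were collected untouched, by holding back other spleen cells on magnetic columns, and the RNA of each mouse was labelled with Cy3 and hybridised to 1 single-colour Agilent array. Each level below is the log2 of a spot's processed signal minus the log2 of the 75th percentile of its own array, and each difference is selenium minus control on that log2 scale.

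NK cells are innate lymphocytes that kill stressed, infected or transformed cells by releasing perforin and granzymes, and that secrete interferon gamma and other cytokines once receptors or cytokines activate them. Interleukins and interferons drive their growth and readiness to kill. Selenium is built as selenocysteine into a small set of proteins, among them the glutathione peroxidases, which remove peroxides, and the thioredoxin reductases, which keep thioredoxin reduced. The messages of some of these proteins are known to be degraded when selenium is scarce.

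Mice that share a number were hybridised on 1 slide, and each of the 5 slides carried 1 mouse per group. Since a group kept its place on the slide throughout, effects of place and of treatment cannot be told apart. The 75th percentile of the signal ran from 107 to 121 scanner units on the control arrays and from 75.3 to 128 on the selenium arrays, and the 10 arrays correlated with each other at 0.945 to 0.987 across genes. NK markers were well above background: 38 of 39 tested NK receptor and adaptor genes passed on all 10 arrays, and so did 17 of 20 cytotoxic effector genes. RNA of other spleen cells was present too, since 17 of 21 B cell markers, 22 of 25 macrophage and monocyte markers and 19 of 20 neutrophil markers also passed on all 10 arrays. In such bulk RNA, fewer cells of a type and less RNA per cell cannot be told apart. Precision is limited by having 5 arrays a group.

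No gene passed the test. With the slide as a block, limma called 0 of 17466 genes (0%) at an adjusted p under 0.05, and the smallest adjusted p was 0.479. An unadjusted p under 0.05 was found for 1463 genes, 8.38% of those tested, where 873 would be expected if no gene differed. Genes that vary together can carry such a count far from its expected value. Of the 1463, 686 were higher with selenium (3.93% of genes tested) and 777 were lower (4.45%). That split depends on the scaling: it was 426 against 187 after the normexp background correction and 864 against 484 with each array's median as the reference. The count of 1463 was 557 without the block, and 961 with the block and without slide 2. Of the 17367 genes measured on all 10 arrays, 938 (5.4%) were higher with selenium on 5 of 5 slides and 741 (4.27%) were lower on 5 of 5. The 5 selenium mice all lay above the 5 control mice for 37 genes (0.213%) and all below them for 48 (0.276%). Over all genes the median difference was 0.01, and 52.7% were higher with selenium. The gene groups below are therefore given as values, to be read against these shares, and adjusted p-values of the genes named ran from 0.536 to 0.966.

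**Figure D1:**
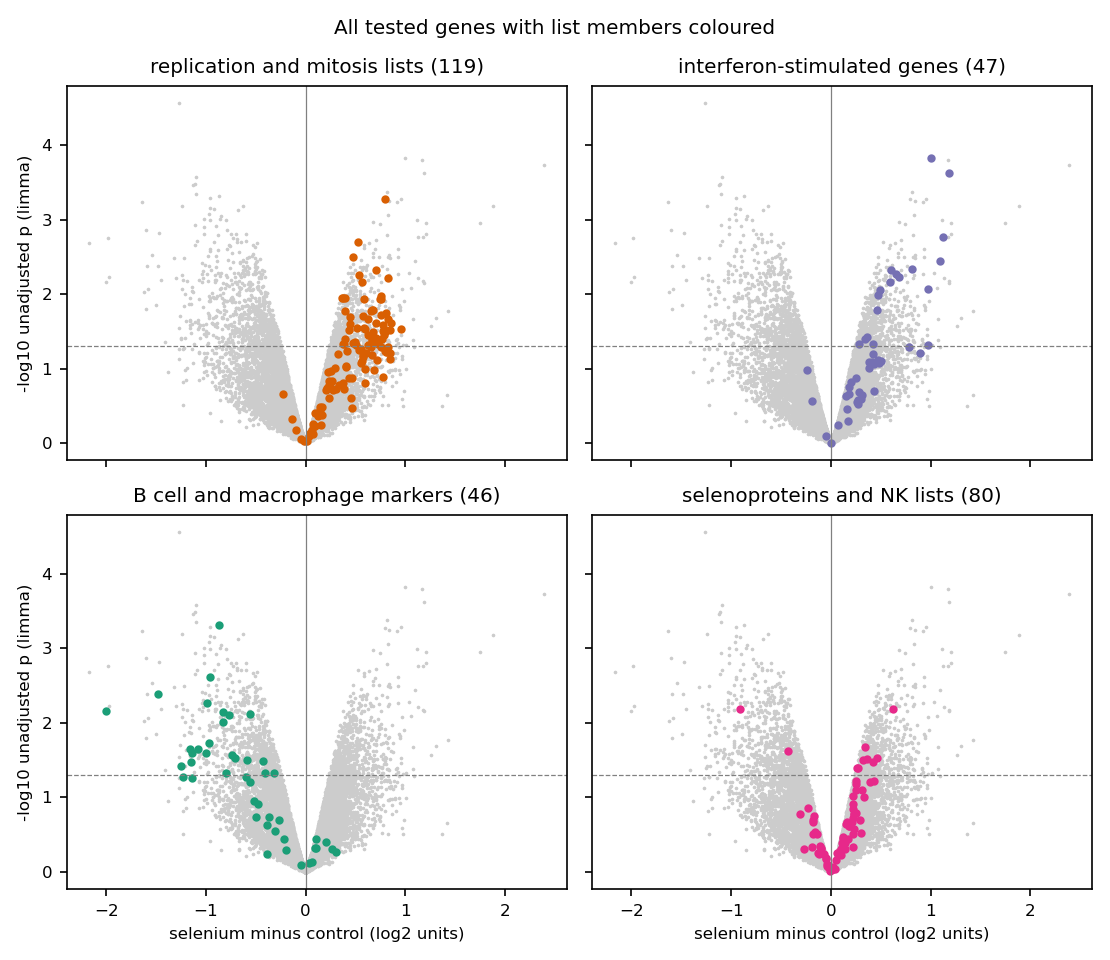
Difference between selenium and control (x axis, log2 units) against the -log10 of the unadjusted p from limma (y axis) for all 17466 tested genes in grey, with the members of the named lists in colour; the dashed line marks an unadjusted p of 0.05. Replication, mitosis and interferon-stimulated genes lie mostly to the right of 0 and B cell and macrophage markers mostly to the left. Selenoproteins lie on both sides of 0, and NK genes more often to the right.

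The genes that selenium is best known for lay close together in the 2 groups. Of 21 tested selenoprotein genes, 11 were higher and 10 lower with selenium, and the median difference was 0.02 (-0.00 after quantile normalization). The single differences ran from -0.19 to 0.27, and the median absolute difference over all genes was 0.15. At an unadjusted p under 0.05, 1 of the 21 (4.76%) was higher, against 3.93% of all genes. On 5 of 5 slides 2 (9.52%) were higher, against 5.4% of all genes. Gpx1, the cytosolic glutathione peroxidase, had levels of 5.80, 6.50, 5.23, 5.83 and 5.83 in control mice 1 to 5 and of 5.74, 6.30, 5.76, 5.74 and 6.18 in selenium mice 1 to 5. The groups overlapped fully, and the difference was 0.10 with a 95% interval from -0.24 to 0.45; leaving out slide 3 gave -0.00. Gpx4, which protects membranes from lipid peroxidation, differed by 0.13 (-0.18 to 0.43).

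Among the other selenoproteins, Selenow, a small protein highly responsive to selenium supply, was at 3.61, 4.04, 3.27, 3.17 and 3.32 in control mice 1 to 5 and at 3.71, 4.22, 3.79, 3.46 and 3.35 in the selenium mice. It was higher on 5 of 5 slides by 0.23 ± 0.12 (SE), although the groups overlapped. Selenom, a protein of the endoplasmic reticulum, gave the smallest p of the list (difference 0.27 ± 0.11, unadjusted p = 0.0405, adjusted p = 0.591, limma). Of the thioredoxin reductases, Txnrd1 of the cytosol was at -0.17 ± 0.11 and Txnrd2 of mitochondria at 0.26 ± 0.11, and both intervals spanned 0. Selenop, the secreted carrier of selenium, differed by -0.18 ± 0.13. Sephs2, the enzyme that makes the selenium donor for selenocysteine, differed by -0.02 ± 0.13, and the intervals of Selenop and Sephs2 both spanned 0. Of the 12 tested genes of selenocysteine synthesis and selenium handling, 10 were higher, with a median of 0.11 (0.042 without slide 4) and no unadjusted p under 0.05 in either direction. Their slide medians were -0.05, -0.03, 0.28, 0.24 and 0.02, highest on slides 3 and 4. The metallothionein genes Mt1 and Mt2, whose products bind zinc and other metals, were higher on 4 of 5 slides, by 0.36 ± 0.15 and 0.59 ± 0.27. Slide differences in these genes were much larger than that: Mt2 was at 7.21, 5.97, 4.11, 3.22 and 4.49 in control mice 1 to 5.

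**Figure D2:**
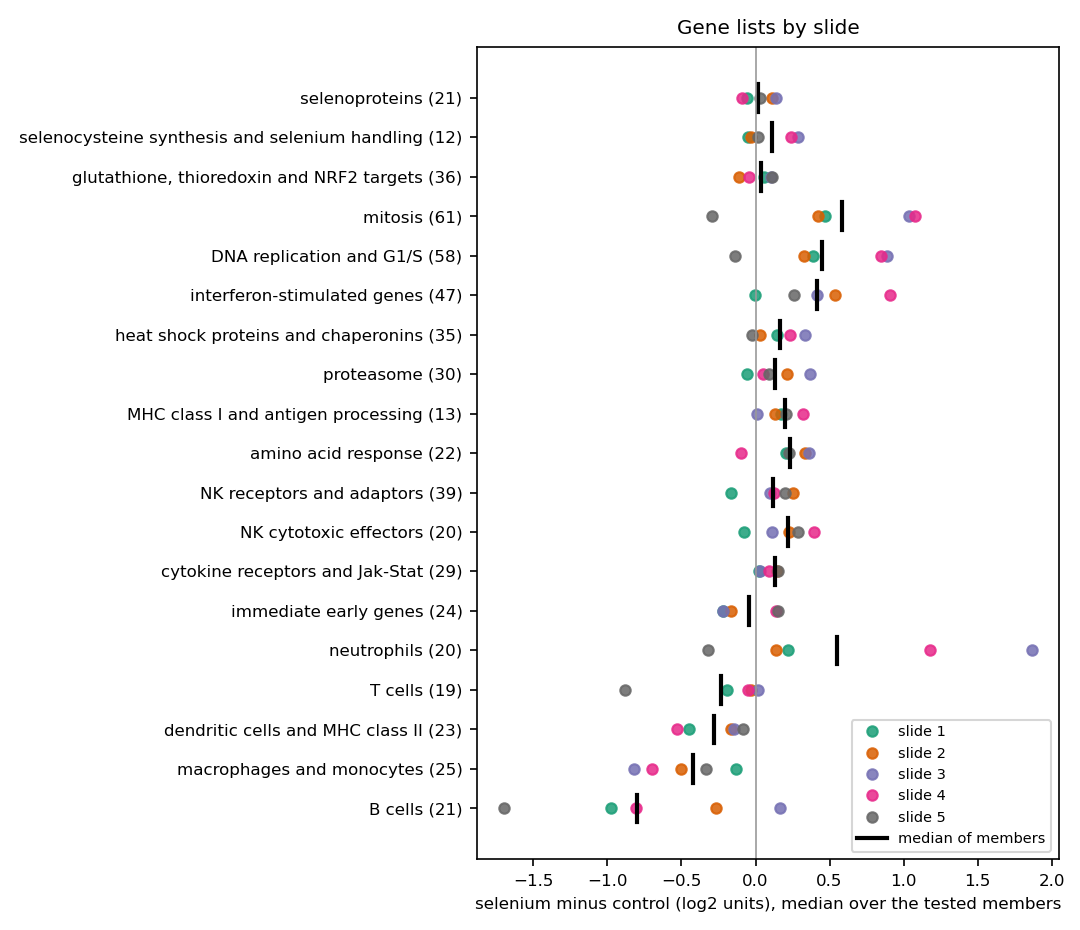
Median difference between selenium and control over the tested members of each gene list (x axis, log2 units), as 1 point per slide and a black bar for the median of the fitted differences; the number of tested members follows each name. Mitosis, replication and neutrophil lists are highest on slides 3 and 4 and below 0 on slide 5, selenoproteins sit at 0, and B cell markers range from -1.70 to 0.16.

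Interferon-stimulated genes were higher as a group. Their products block the replication of viruses and are switched on through the receptors for type I and type II interferons. Of 47 tested, 43 were higher with selenium, with a median of 0.42, and 15 (31.9%) were higher on 5 of 5 slides against 5.4% of all genes. At an unadjusted p under 0.05, 18 (38.3%) were higher and 0 lower, against 3.93% and 4.45% of all genes. Most of the leading members code for 2'-5' oligoadenylate synthetases, which sense double-stranded RNA and switch on RNA decay by RNase L. Oas1a (probe on chromosome 5, 121348348 to 121348407, mm9) was at 0.10, 1.02, 0.50, 0.74 and 0.23 in control mice 1 to 5 and at 0.76, 1.95, 1.69, 2.07 and 1.12 in selenium mice 1 to 5. It was higher on every slide, while the lowest selenium mouse, mouse 1, lay below control mouse 2. The difference of 1.00 ± 0.13 is 2-fold, with adjusted p = 0.536.

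Oas3 was at -2.45, -1.84, -1.73, -1.29 and -2.16 in the control mice and at -1.62, -0.32, -0.84, 0.43 and -1.18 in the selenium mice, a difference of 1.19 ± 0.17 that again held on 5 of 5 slides. Oas1f and Oas2 were higher on 5 of 5 slides as well, by 0.92 ± 0.15 and 1.13 ± 0.23. Usp18, which removes the ubiquitin-like protein ISG15 and dampens the interferon receptor, was at -1.25, -0.92, -1.12, -0.52 and -1.21 in control mice and at -1.20, 0.59, 0.71, 0.64 and -0.27 in selenium mice. On slide 1 its 2 mice nearly coincided, and on the other slides the selenium mouse was clearly higher. Xaf1, an interferon-induced promoter of apoptosis, differed by 0.81 ± 0.20. The list differed between slides: its median was -0.00 on slide 1, 0.54 on slide 2, 0.41 on slide 3, 0.91 on slide 4 and 0.26 on slide 5, and leaving out single slides gave medians from 0.27 to 0.51. Macrophage and monocyte markers were lower on the same slides, with medians of -0.13, -0.50, -0.82, -0.70 and -0.33 in that order; their part in the interferon list was not tested.

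The interferon receptors and their signalling genes lay nearer to 0. Of 25 tested, 15 were higher, with a median of 0.07 (-0.01 after quantile normalization). Stat3, a transcription factor downstream of many cytokines, was higher on 5 of 5 slides by 0.44 ± 0.13. Irf8, a transcription factor of myeloid and NK lineages, differed by 0.28 ± 0.12. Tlr7, a sensor of single-stranded RNA best known in plasmacytoid dendritic cells, B cells and macrophages, was lower on 4 of 5 slides by 0.49 ± 0.21. Ifng, the interferon that NK cells themselves make, was at 6.38, 6.45, 5.19, 4.48 and 4.65 in the control mice and at 6.22, 7.18, 5.53, 5.32 and 5.59 in the selenium mice. It was higher on 4 of 5 slides by 0.54 ± 0.18, and differences between slides exceeded that between groups.

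RefSeq promoter windows (build GRCm38.p6, the 250 bases before each start) are shown for the leading interferon-stimulated genes because these carry the letters GAAANNGAAA, the core of the interferon-stimulated response element. Capitals mark each match, on either strand, and all sequences run 5' to 3' on the strand of the gene. Oas1a lies on the minus strand at chr5:120907526-120907775 and Oas3 on the minus strand at chr5:120777660-120777909.
Oas1a: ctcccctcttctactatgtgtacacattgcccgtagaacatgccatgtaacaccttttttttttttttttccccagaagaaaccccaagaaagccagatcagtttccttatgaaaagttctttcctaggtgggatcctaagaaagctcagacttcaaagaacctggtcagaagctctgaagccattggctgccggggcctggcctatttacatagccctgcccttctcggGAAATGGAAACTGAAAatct
Oas3: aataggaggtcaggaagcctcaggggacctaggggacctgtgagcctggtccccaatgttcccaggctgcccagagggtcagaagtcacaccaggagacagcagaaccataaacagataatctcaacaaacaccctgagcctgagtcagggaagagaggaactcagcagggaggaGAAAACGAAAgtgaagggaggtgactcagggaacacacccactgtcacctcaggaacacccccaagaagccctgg
The overlapping pair of matches in Oas1a ends 4 bases before the start, and the match in Oas3 ends 65 bases before it. Of the 33 tested interferon-stimulated genes with a window, 14 (42.4%) held the letters on at least 1 strand, against 365 of 10962 tested genes with a window (3.33%) and 978 of all 32851 windows (2.98%). A match is a description of these letters only.

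Genes of DNA replication and mitosis were higher in nearly all cases, and the replication list had the largest share of members on 1 side among the 42 lists. Of 58 tested replication and G1/S genes, 57 were higher with selenium, with a median of 0.45, and 28 (48.3%) had an unadjusted p under 0.05 in that direction against 3.93% of all genes. Of 61 mitosis genes 57 were higher, with a median of 0.58, and 27 (44.3%) had such a p. In neither list was any member lower at that p. Fewer members held on all slides: 10 replication genes (17.2%) and 6 mitosis genes (9.84%) were higher on 5 of 5. That compares with 5.4% of all genes, and 0 members of either list were lower on 5 of 5.

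Mcm5, a subunit of the replicative helicase (probe on chromosome 8, 77651350 to 77651410, mm9), was at 2.44, 2.94, 2.33, 2.05 and 2.01 in control mice 1 to 5 and at 3.07, 3.59, 3.35, 3.18 and 2.10 in selenium mice 1 to 5. Selenium mice 1 to 4 stood above every control mouse, and selenium mouse 5 was among the controls. The difference was 0.70 ± 0.17. Ccnd2, a D-type cyclin that opens the G1 phase, was at 3.93, 3.88, 3.84, 3.57 and 3.54 in control mice and at 4.54, 4.59, 4.21, 4.01 and 4.03 in selenium mice. Its groups did not overlap, and the difference was 0.53 ± 0.11. Fen1 and Lig1, which process and join Okazaki fragments, were higher on 5 of 5 slides by 0.48 ± 0.11 and 0.56 ± 0.15. E2f8, an atypical E2F repressor that peaks in S phase, differed by 0.76 ± 0.22.

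In the mitosis group, Ncaph, a subunit of condensin, was at -1.29, -1.73, -0.995, -1.60 and -1.94 in control mice and at -0.75, -1.16, -0.20, -0.47 and -1.02 in selenium mice. It was higher on every slide by 0.79 ± 0.13, with overlapping groups. Espl1, the separase that frees sister chromatids, differed by 0.82 ± 0.21, and Kif23, a motor of the central spindle, by 0.54 ± 0.13. Foxm1, the transcription factor of G2/M genes, differed by 0.58 ± 0.17, and Prc1, which bundles spindle microtubules, by 0.75 ± 0.22. In the p53 and DNA damage list, Brca1 and Brca2, which act in the repair of DNA breaks, were higher on 4 of 5 slides, by 0.58 ± 0.23 and 0.75 ± 0.29. The list as a whole had a median of 0.07 (0.015 without slide 3), with 18 of 26 genes higher.

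The cell cycle lists were higher on slides 1 to 4. By slide the replication list had medians of 0.39, 0.33, 0.88, 0.85 and -0.14, and the mitosis list 0.47, 0.42, 1.04, 1.08 and -0.30, in the order of slides 1 to 5. Without slide 5 the mitosis median was 0.78, and without slide 4 it was 0.42. Markers of neutrophils and their precursors had medians of 0.22, 0.14, 1.87, 1.18 and -0.32 on the same slides, highest on slides 3 and 4 and below 0 on slide 5, as for the cell cycle lists. At an unadjusted p under 0.05, 1 of the 20 neutrophil markers was higher (5%) and 1 lower (5%), against 3.93% and 4.45% of all genes. On 5 of 5 slides 2 of the 20 (10%) were higher, against 5.4% of all genes. Elane and Mpo, granule proteases and peroxidase made by dividing neutrophil precursors, were higher by 1.01 ± 0.42 and 0.94 ± 0.40 on 4 of 5 slides. S100a8, a calcium-binding protein of mature neutrophils, was at 4.61, 4.20, 2.99, 3.26 and 4.32 in control mice and at 4.23, 4.84, 5.58, 4.69 and 2.94 in selenium mice, with overlapping groups. Csf3r, the receptor for the neutrophil growth factor, was lower on 4 of 5 slides by 0.66 ± 0.25. The summed level of the 20 neutrophil markers ran from 292 to 552 times the array's 75th percentile in control mice and from 341 to 1033 in selenium mice, and none of the markers was below background on every array. The part of these cells in the cell cycle lists was not tested.

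**Figure D3:**
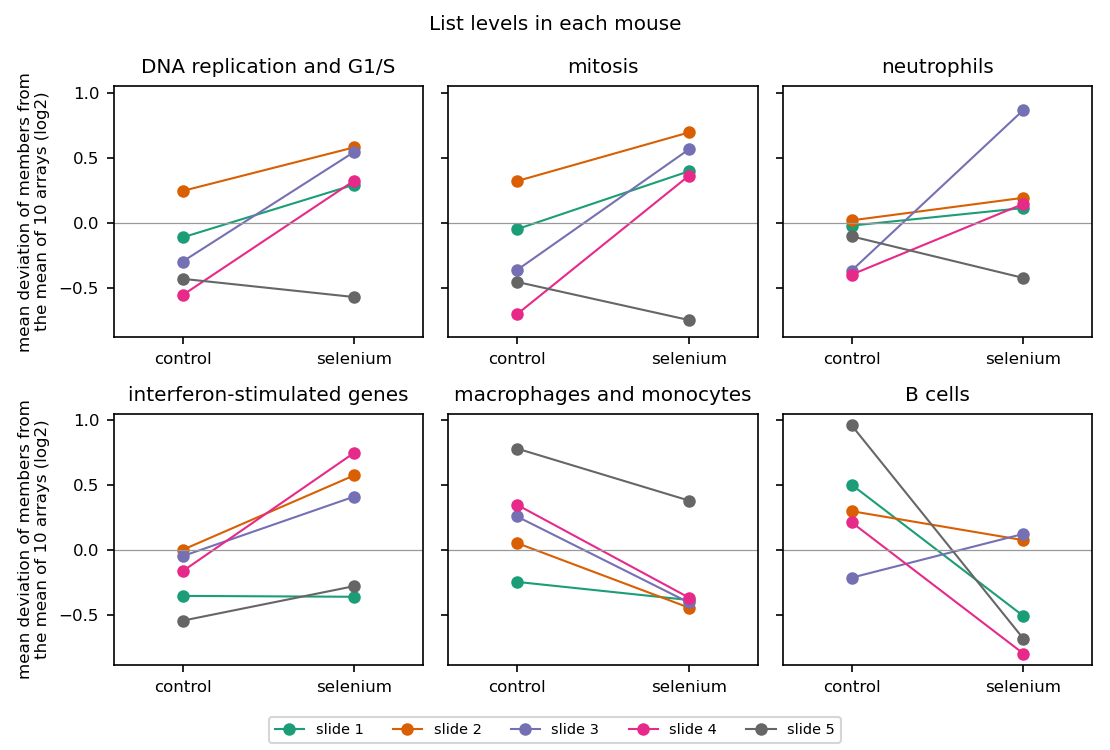
Mean deviation of a list's tested members from their mean over the 10 arrays (y axis, log2 units) in each control and selenium mouse (x axis), joined within a slide. Replication, mitosis and neutrophil levels go up from control to selenium on slides 1 to 4 and down on slide 5, interferon-stimulated genes stay level on slide 1, and macrophage markers go down on every slide.

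The windows of Mcm5 (plus strand, chr8:75109259-75109508) and Espl1 (plus strand, chr15:102296043-102296292) are shown because they are the leading members of their lists whose upstream bases hold an E2F-type match or a CHR. The E2F search used TTTCCCGC, TTTCGCGC, TTTGCCGC and TTTGGCGC, and the CHR search, for the cell cycle homology region of G2/M genes, used TTTGAA, both on either strand. Matches are in capitals, and the capitals of Mcm5 cover 2 overlapping matches on opposite strands.
Mcm5: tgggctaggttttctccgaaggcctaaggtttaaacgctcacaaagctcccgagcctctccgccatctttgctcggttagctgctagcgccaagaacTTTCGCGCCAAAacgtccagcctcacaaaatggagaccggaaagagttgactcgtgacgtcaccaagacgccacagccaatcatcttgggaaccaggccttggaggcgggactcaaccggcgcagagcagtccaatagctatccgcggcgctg
Espl1: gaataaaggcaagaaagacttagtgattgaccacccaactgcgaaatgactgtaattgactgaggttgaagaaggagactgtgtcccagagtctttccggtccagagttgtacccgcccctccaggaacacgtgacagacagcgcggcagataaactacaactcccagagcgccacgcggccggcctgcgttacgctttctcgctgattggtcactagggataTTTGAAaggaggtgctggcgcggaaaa
An E2F-type match was present in 15 of 49 replication genes with a window (30.6%), in 3 of 49 mitosis genes (6.12%) and in 3.50% of the 10962 tested genes with a window. The CHR letters were present in 9 of 49 replication genes (18.4%), in 20 of 49 mitosis genes (40.8%) and in 13.5% of tested genes with a window.

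The single genes with the smallest p among those that pointed the same way on every slide were mostly none of the genes a cytotoxic lymphocyte is known for. The adjusted p was 0.536 for each of them. The largest difference belonged to Spint1, which codes for a protease inhibitor anchored in the cell membrane (probe on chromosome 2, 119074929 to 119074988, mm9), at -1.72, -4.07, -3.20, -2.93 and -2.12 in control mice and -0.77, -1.12, 0.14, -0.57 and 0.24 in selenium mice. Its groups did not overlap, the difference was 2.39 ± 0.33 or 5.25-fold, and its other probe gave 2.22. Hic1, a zinc-finger transcriptional repressor (chromosome 11, 74978107 to 74978166, mm9), was at 2.36, 1.43, 0.98, 0.20 and 0.54 in control mice and 3.17, 2.89, 2.66, 2.56 and 3.65 in selenium mice, a 3.69-fold difference without overlap. Control mouse 1 was the highest control for both Hic1 and Spint1.

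Ddit4, a stress-induced inhibitor of mTORC1 signalling, was at 4.81, 5.41, 5.23, 3.83 and 3.35 in control mice and 6.29, 6.42, 5.85, 5.19 and 4.75 in selenium mice. The groups overlapped, mice 4 and 5 being the lowest of both, and within slides the difference ran from 0.62 to 1.48. Ccno, a member of the cyclin family, and Slc29a2, a nucleoside transporter, were higher without overlap by 1.12 ± 0.20 and 0.83 ± 0.15. Tyro3, a receptor tyrosine kinase that tunes innate responses, was likewise higher without overlap by 0.82 ± 0.13 on its brightest probe, but its 3 probes ranged from 0.01 to that value. Hnf4a, a nuclear receptor best known in liver, and Comp, a cartilage matrix protein, were near background: 1 and 3 of 5 control arrays were well above it, and their differences of 0.84 and 0.68 rest on dim spots. Oas1a, Oas3, Oas1f and Ncaph, given above, complete the 12 higher genes.

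Of the 12 lower genes, 3 are cDNA clones with no symbol. Spic, the transcription factor of the iron-recycling red pulp macrophages of the spleen (probe on chromosome 10, 88138053 to 88138112, mm9), was at 2.26, 3.24, 3.05, 3.00 and 3.52 in control mice and at 1.87, 2.33, 2.18, 1.98 and 2.36 in selenium mice. It was lower on every slide by 0.87 ± 0.14, and the groups overlapped only through control mouse 1. Hpgds, the prostaglandin D2 synthase of immune cells, was lower by 1.11 ± 0.17, and 3 of 5 selenium arrays were above background. Insr, the insulin receptor, was lower without overlap by 0.95 ± 0.15, with 3 of 5 selenium arrays above background. Lrrk2, a kinase expressed in B cells and myeloid cells, was lower without overlap by 0.84 ± 0.15. Fam129c, a gene expressed in B cells, was lower by 1.10 ± 0.17, Ocstamp, a fusion protein of osteoclasts and macrophages, by 0.91 ± 0.16, and Snx30, a sorting nexin, by 0.68 ± 0.12.

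Gdf15, a secreted stress factor of the TGF-beta family, was at 1.38, 1.90, 2.10, 2.01 and 3.38 in control mice and 0.83, 0.89, 0.79, 0.39 and 2.77 in selenium mice. Mouse 5 was the highest of both groups, and the difference was -1.02 ± 0.18. Pik3ip1, an inhibitor of phosphatidylinositol 3-kinase, was lower by 0.85 ± 0.15.

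**Figure D4:**
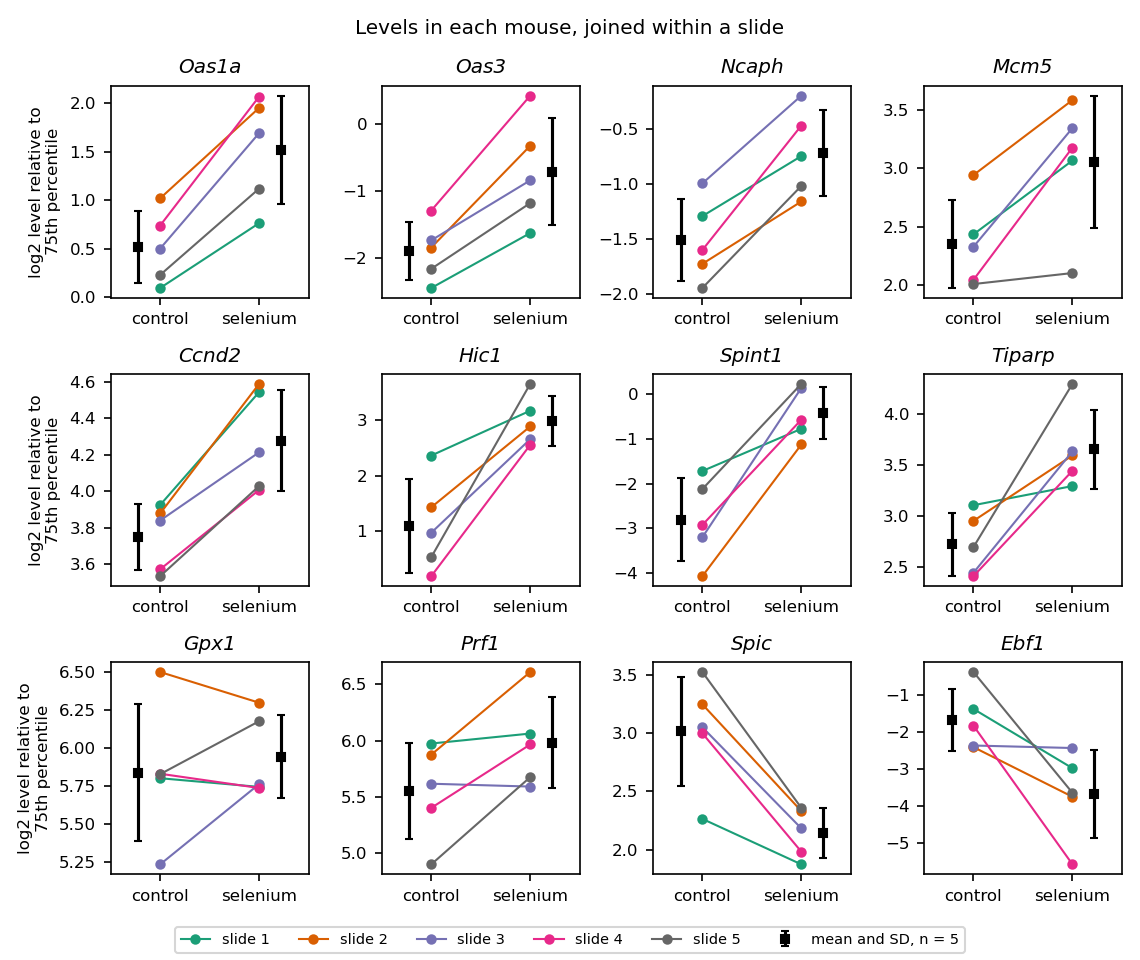
Level of 12 genes (y axis, log2 relative to the array's 75th percentile) in the control and selenium mouse of each slide (coloured, joined), with the mean and SD of each group in black (n = 5). Oas1a, Oas3, Ncaph, Mcm5, Ccnd2, Hic1, Spint1 and Tiparp go up on every slide, Spic and Ebf1 go down on every slide, and Gpx1 crosses.

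The aryl hydrocarbon receptor is a ligand-activated transcription factor that induces detoxifying enzymes. Its list, which holds the receptor gene Ahr as well as targets, was measured in small number. Of 9 listed genes on the array 5 were tested, 2 higher and 3 lower, with a median of -0.01 that ran from -0.08 to 0.04 with single slides left out. The higher ones were Tiparp and Ahrr. Tiparp, a classical target, was at 3.11, 2.96, 2.45, 2.41 and 2.70 in control mice and 3.30, 3.60, 3.64, 3.45 and 4.30 in selenium mice, without overlap and with a difference of 0.93 ± 0.21. Ahrr, the receptor's repressor and another target, was at -3.68, -5.30, -4.51, -3.83 and -3.82 in control mice and -2.55, -3.16, -2.32, -3.30 and -1.07 in selenium mice, also without overlap, and 3 of 5 control arrays were above background. Ahr itself was lower on 5 of 5 slides by 0.36 ± 0.13. Nqo1, a quinone reductase induced by both this receptor and NRF2, was higher on 4 of 5 slides by 1.06 ± 0.29.

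The wider glutathione, thioredoxin and NRF2 list did not point one way. Of 36 tested genes 21 were higher, with a median of 0.04. At an unadjusted p under 0.05, 2 (5.56%) were higher and 4 (11.1%) lower, against 3.93% and 4.45% of all genes. Keap1, the inhibitor of NRF2, was higher on 5 of 5 slides by 0.29 ± 0.11, and Nfe2l2, the gene of NRF2 itself, was lower on 4 of 5 by 0.37 ± 0.15. Hmox1, the heme-degrading enzyme that is abundant in red pulp macrophages, was at 2.84, 1.47, 2.62, 2.92 and 3.86 in control mice and 2.18, 0.60, 0.93, 1.68 and 3.53 in selenium mice. It was lower on every slide by 0.96 ± 0.20, and the groups overlapped, with wide differences between slides. Mgst1, a microsomal glutathione transferase, and Slc7a11, the cystine importer, were lower on 4 of 5 slides by 0.75 ± 0.26 and 0.74 ± 0.30. Macrophage markers, described below, were lower on the same slides, and Hmox1 is itself a member of that list. The part of macrophages in these values was not tested.

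Lists for making, folding and degrading proteins leaned upward by small amounts. Of 35 heat shock and chaperonin genes 32 were higher, with a median of 0.17 (0.10 without slide 4). On 5 of 5 slides 9 (25.7%) were higher, against 5.4% of all genes. Stip1, which links Hsp70 and Hsp90, was higher on every slide by 0.47 ± 0.12. Hspd1, the mitochondrial chaperonin, Hsp90ab1 and Hspa8, cytosolic chaperones, were too, by 0.40 ± 0.14, 0.35 ± 0.12 and 0.29 ± 0.11. Of 30 proteasome genes 27 were higher, with a median of 0.13. On 5 of 5 slides 8 (26.7%) were higher, against 5.4% of all genes. The proteasome median was 0.065 without slide 3, and it was -0.06 on slide 1. The interferon-inducible subunits Psmb8 and Psmb10 and the activator Psme1 led them, by 0.30 ± 0.11, 0.32 ± 0.11 and 0.32 ± 0.12.

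Of 13 genes of MHC class I and antigen processing 12 were higher, with a median of 0.20; Tap1, the peptide transporter, differed by 0.42 ± 0.17. In the endoplasmic reticulum folding list (20 of 26 higher, median 0.13, and 0.081 without slide 3) the single differences ran from -0.71 to 0.46. At an unadjusted p under 0.05, 3 (11.5%) were higher and 1 (3.85%) lower, against 3.93% and 4.45% of all genes. Among the higher genes were Sdf2l1 and Creld2, luminal proteins of the stress response, at 0.38 ± 0.12 and 0.35 ± 0.13. In the amino acid response list 17 of 22 were higher, with a median of 0.23 (0.15 without slide 1). Of the 22, 2 (9.09%) were higher at an unadjusted p under 0.05, against 3.93% of all genes. They were Ddit4 and Shmt2, the mitochondrial serine hydroxymethyltransferase (0.46 ± 0.12). Genes of mitochondrial respiration (32 of 36 higher, median 0.15, and 0.080 without slide 3) and ribosome biogenesis (32 of 36 higher, median 0.11, and 0.055 without slide 4) had small differences. In these lists 0 (0%) and 1 (2.78%) were higher at an unadjusted p under 0.05. Cytoplasmic ribosomal proteins had a median of 0.06, which was -0.04 after quantile normalization and -0.06 without slide 3.

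NK genes had medians a little above 0. Of 39 receptor and adaptor genes 29 were higher, with a median of 0.12. At an unadjusted p under 0.05, 5 (12.8%) were higher and 1 (2.56%) lower, against 3.93% and 4.45% of all genes. The slide medians were -0.16, 0.25, 0.10, 0.12 and 0.20, and without the array of selenium mouse 2, fitted with no block, the median was 0.0044. On the same arrays B cell, macrophage and dendritic cell markers had medians of -0.80, -0.43 and -0.28, and their part in the NK values was not tested. Klrb1c, the gene of NK1.1, was at 4.50, 4.96, 4.07, 3.99 and 3.92 in control mice and 4.53, 5.17, 4.25, 4.53 and 4.24 in selenium mice. It was higher on 5 of 5 slides by 0.25 ± 0.12, with overlapping groups. Crtam, a receptor of activated NK and CD8 T cells, differed by 0.62 ± 0.16, Zap70, a kinase behind activating receptors, by 0.34 ± 0.11, and Klrg1, an inhibitory receptor of mature cells, by 0.47 ± 0.17. Klra4, a Ly49 receptor of a family of near-identical genes whose probes may cross-hybridise, differed by 0.26 ± 0.10. Klrk1, the gene of NKG2D, differed by 0.32 ± 0.12 on its brighter probe and by -0.02 on the other. Ncr1, the gene of NKp46, differed by 0.29 ± 0.21, with an interval spanning 0. The 1 receptor lower at that p was Siglech, at -0.91 ± 0.23, a lectin best known from plasmacytoid dendritic cells.

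Of 20 cytotoxic effector genes 15 were higher, with a median of 0.22 (0.082 without the array of control mouse 5, fitted with no block). Prf1, the gene of perforin, was at 5.97, 5.88, 5.62, 5.40 and 4.90 in control mice and 6.06, 6.61, 5.59, 5.97 and 5.68 in selenium mice. It was higher on 4 of 5 slides by 0.43 ± 0.16. Nkg7, a granule membrane protein needed for degranulation, was higher on 5 of 5 by 0.36 ± 0.13. Gzmb, the gene of granzyme B, was measured on 4 slides, since its spot was flagged as an outlier in selenium mouse 2, and differed by 0.22 ± 0.20. Ctsc, the protease that activates granzymes and is also abundant in myeloid cells, was lower on 5 of 5 slides by 0.43 ± 0.15.

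NK transcription factors (10 of 16 higher, median 0.06, and 0.023 without slide 4) were led by Gata3, at 0.34 ± 0.11, and Ikzf2, the gene of Helios, at 0.49 ± 0.14 on its brightest probe, although its 4 probes ranged from -0.34 to that value. Among maturation and trafficking genes (13 of 23 higher, median 0.06, 0.0088 without slide 2 and -0.03 when probes of a gene were averaged) S1pr1, the receptor that guides lymphocytes out of tissues, was lower on 5 of 5 slides by 0.71 ± 0.21. Ly6c2, a marker of mature NK cells and of monocytes, was higher on 4 of 5 by 0.49 ± 0.18. The summed level of the receptor list ran from 495 to 699 times the array's 75th percentile in control mice and from 543 to 812 in selenium mice, so the groups overlapped.

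Cytokine receptors and Jak-Stat genes were higher in 21 of 29 cases, with a median of 0.13 (0.059 without slide 5). On 5 of 5 slides 7 (24.1%) were higher, against 5.4% of all genes. The genes higher in the fit include Il2ra and Il4ra, receptor chains for interleukins 2 and 4, at 0.41 ± 0.13 and 0.41 ± 0.13. Il21r, the interleukin 21 receptor, and Cish, a feedback inhibitor of these receptors, were at 0.42 ± 0.16 and 0.37 ± 0.13. Bcl2 and Bcl2l1, which protect lymphocytes from apoptosis, were both higher on 5 of 5 slides, by 0.39 ± 0.13 and 0.67 ± 0.20; the Bcl2 family as a whole had 9 of 14 genes higher and a median of 0.07 (-0.02 without slide 2).

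Cytokines and chemokines split. Over 29 genes the median was 0.04 (-0.01 without slide 4). At an unadjusted p under 0.05, 3 (10.3%) were higher and 5 (17.2%) lower, against 3.93% and 4.45% of all genes. Csf2, the gene of GM-CSF made by activated lymphocytes, was higher on 5 of 5 slides by 0.74 ± 0.18. The lower genes are among those that macrophages and other myeloid cells can make, and the part of any cell type in these values was not tested. Tnf was at 2.90, 4.12, 4.18, 3.21 and 3.50 in control mice and 2.31, 3.19, 2.46, 1.88 and 3.61 in selenium mice, lower on 4 of 5 slides. Il10 and Il18 were lower on 5 of 5 by 0.50 ± 0.15 and 0.49 ± 0.11, and the chemokines Cxcl2 and Cxcl16 on 4 of 5 by 0.59 ± 0.23 and 0.54 ± 0.21. Immediate early genes, induced within minutes of a stimulus or of tissue handling, were lower in 15 of 24 cases with a median of -0.05 (0.01 with median scaling). Egr1, Egr3 and Dusp1 had differences of -0.57 ± 0.23, -0.80 ± 0.28 and -0.37 ± 0.14.

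Markers of B cells, macrophages, dendritic cells and T cells were mostly lower in the selenium mice, while those of neutrophils, erythroid cells and platelets were mostly higher. Of 21 B cell markers 18 were lower, with a median of -0.80, and 10 (47.6%) had an unadjusted p under 0.05 downward against 4.45% of all genes. Ms4a1, the gene of CD20, differed by -1.14 ± 0.40. Ebf1, the transcription factor that commits cells to the B lineage, was at -1.37, -2.40, -2.36, -1.82 and -0.37 in control mice and -2.97, -3.74, -2.42, -5.57 and -3.64 in selenium mice, without overlap; 3 of 5 selenium arrays were above background. Pax5, Spib and Blk, further B lineage regulators, were lower on 5 of 5 slides by 0.99 ± 0.25, 0.83 ± 0.22 and 0.83 ± 0.23, with Pax5 above background on 4 control arrays and 1 selenium array. By slide the B cell median was -0.97, -0.27, 0.16, -0.81 and -1.70. The summed level ran from 114 to 198 times the 75th percentile in control mice and from 102 to 184 in selenium mice, with overlap.

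Macrophage and monocyte markers had a median below 0 on each of the 5 slides, as had dendritic cell and MHC class II genes. Of 25 tested macrophage and monocyte markers 20 were lower, with a median of -0.43. Of the 25, 13 (52.0%) had an unadjusted p under 0.05 downward, against 4.45% of all genes. Leaving out single slides gave medians from -0.57 to -0.44. Mrc1, the mannose receptor, was at -3.61, -2.44, -2.65, -2.84 and -2.24 in control mice and -4.13, -3.88, -4.23, -5.89 and -3.05 in selenium mice, with 1 of 5 selenium arrays above background. C1qc, a complement chain made by tissue macrophages, was lower on 5 of 5 slides by 0.77 ± 0.21. Lyz2, the lysozyme of myeloid cells, was lower on 4 of 5 by 0.41 ± 0.17. The summed level ran from 689 to 1003 in control mice and from 521 to 914 in selenium mice, with overlap, and Mertk was the 1 listed marker too dim to be tested.

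Of 23 dendritic cell and MHC class II genes 17 were lower, with a median of -0.28 (-0.17 without slide 4). Of the 23, 7 (30.4%) had an unadjusted p under 0.05 downward, against 4.45% of all genes. Ciita, the master activator of class II genes, was lower on 5 of 5 slides by 0.54 ± 0.12, H2-Aa, a class II chain, by 0.40 ± 0.14, and Cd86, a costimulatory ligand, on 4 of 5 by 0.57 ± 0.18. T cell markers gave 15 of 19 lower with a median of -0.23, which was -0.10 without slide 5. Their slide medians were -0.19, -0.03, 0.02, -0.05 and -0.88. Cd8b1 was at 0.31, -0.58, -1.33, 0.99 and 1.62 in control mice and -2.20, -1.31, -1.51, -2.19 and -1.66 in selenium mice, lower on every slide with groups that overlapped only at control mouse 3. Cd8a and Cd5 were lower by 1.21 ± 0.34 and 0.98 ± 0.25. Cd3e, a chain of the T cell receptor complex, differed by -0.12 ± 0.30, and by 0.08 without slide 5. Lck, a kinase shared with NK cells, was higher on 5 of 5 slides by 0.39 ± 0.13.

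Erythroid markers had no direction across slides (median 0.14, -0.03 after normexp and -0.10 without slide 4; slide medians from -1.09 to 0.71), and Hba-a1, a globin gene, differed by -0.78 ± 0.47. Platelet and megakaryocyte genes were higher in 15 of 16 cases with a median of 0.20, which was 0.079 without slide 5. Their slide medians were 0.19, -0.01, 0.14, -0.04 and 0.79. The 10 further lists, among them glycolysis, lipid synthesis, iron handling, plasma cells, mast cells and stroma, had medians from -0.04 to 0.18. Over their 165 members tested, 8 had an unadjusted p under 0.05 upward and 10 downward, where all genes had 3.93% and 4.45%.

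The mice that received ptaquiloside bear on selenium too, since both compounds against ptaquiloside alone also differ by selenium. No gene passed there either: limma with the slide as a block called 0 genes, with 93 at an unadjusted p under 0.05. The array of ptaquiloside mouse 4 was dim, with a 75th percentile of 10.5 scanner units, and without slide 4 there were again 0 calls and 569 genes at that p. The test of whether the selenium difference itself depended on ptaquiloside, over all 20 arrays, called 0 genes and had 367 at an unadjusted p under 0.05. Without slide 4 it called 0 (0%), with 633 (3.62%) at an unadjusted p under 0.05 and a smallest adjusted p of 0.0876.

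Values with ptaquiloside, taken without slide 4, are set here beside those without ptaquiloside from all 5 slides. The mitosis list was higher with selenium in both settings, with medians of 0.58 without and 0.50 with ptaquiloside, and the replication list had 0.45 and 0.21. With slide 4 left out there too, the medians without ptaquiloside were 0.42 for mitosis, 0.35 for replication and 0.27 for interferon-stimulated genes. With slide 4 kept, the medians with ptaquiloside were 0.45 for mitosis and 0.47 for replication, where 53 of 58 genes were higher. Neutrophil markers had 0.55 and 0.62, the first being 0.20 without slide 3 and 1.00 without slide 5. The interferon-stimulated genes had 0.42 without ptaquiloside and -0.09 with it, where 14 of 47 were higher, and 5 of the 47 (10.6%) had an unadjusted interaction p under 0.05. The sign with ptaquiloside rests on leaving out slide 4, since over all 5 slides the median was 0.15 and 30 of 47 were higher. Oas1a differed by 0.71 in the presence of ptaquiloside and Usp18 by -0.17. B cell markers had medians of opposite sign, -0.80 and 0.62, and 10 of 21 (47.6%) had an unadjusted interaction p under 0.05 against 3.62% of all genes. T cell markers had -0.23 (-0.10 without slide 5) and 0.33, with 7 of 19 at that p, and macrophage markers -0.43 and 0.03. Hic1, Spint1, Ahrr and Tiparp, which separated the groups without ptaquiloside, differed by 0.05, 0.31, -0.00 and -0.31 with it. For Hmox1 and Spic the values with ptaquiloside were -1.11 and -0.72, on the same side as without it. Each of these genes was named for a small p without ptaquiloside, a choice that favours large differences in that setting. The smallest adjusted interaction p among all genes being 0.0876, none of these contrasts between the settings passed the test.

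**Figure D5:**
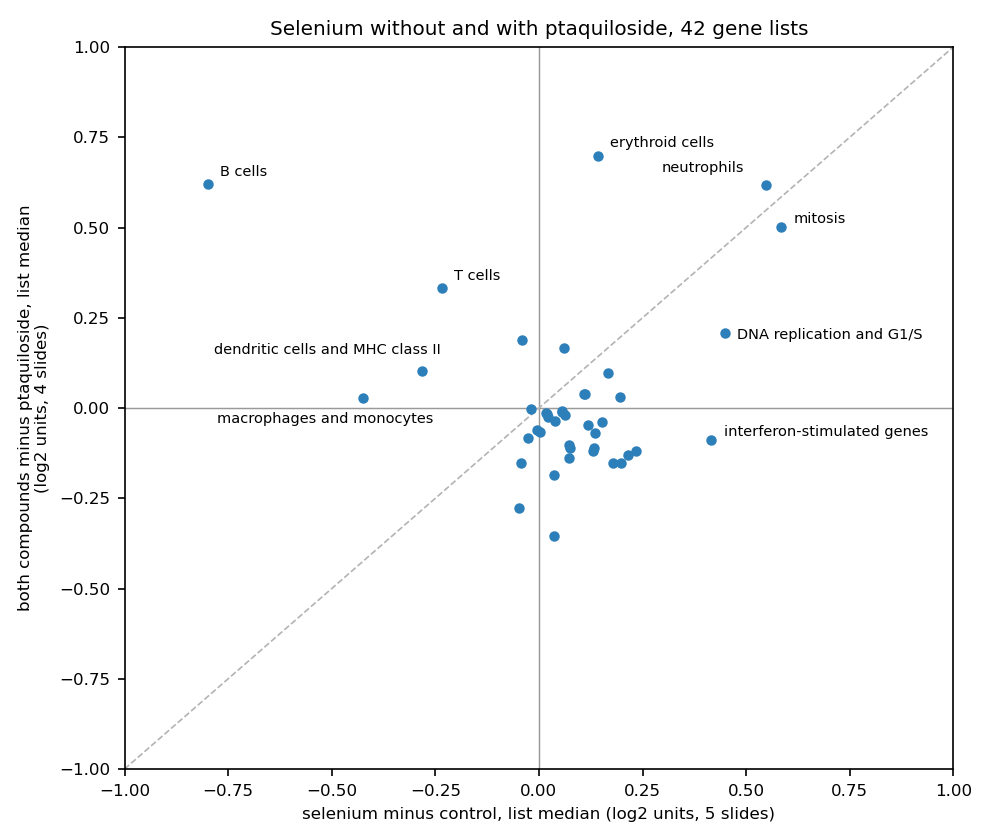
Median difference of each of the 42 gene lists for selenium against control (x axis, log2 units, 5 slides) and for both compounds against ptaquiloside (y axis, log2 units, 4 slides, without slide 4); the dashed line marks equal values. Mitosis and neutrophil lists lie near the line, interferon-stimulated genes lie below it, and B cell markers lie at -0.80 and 0.62.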

How the data were processed

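RNA of NK cells from 20 mice was measured on single-colour arrays, 1 per mouse. The deposited scanner files hold spot intensity values, made with Agilent Feature Extraction 9.5.3.1 per the submitters' processing notes; the processed signal is background-subtracted and not scaled between arrays per the file headers. Columns of other kinds, per the file headers, carry probe names and flags for controls, outliers and signal over background. A table of log2 values in which the authors replaced 2 arrays by group means was not used.

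Control and outlier spots were left out, spots of a probe averaged, and each array scaled to its 75th percentile. A probe was tested if 5 or more of the 20 arrays had it well above background. A RefSeq gene table (GRCm38.p6) gave names by accession to 25253 of 41174 probes, and 15921 kept the name in the file. The probe with the highest mean stands for a gene. Probe coordinates are mm9, as the files give them.

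The 5 control and 5 selenium arrays were fitted with limma 3.58.1 in R 4.3.3, with the slide as a block, 2-sided tests and p-values adjusted by Benjamini and Hochberg across the whole table (threshold 0.05), after a check on simulated data. An error is the fit's SE, and an interval its 95% interval. The pairing comes from the file headers, which put equal mouse numbers on 1 slide. Deviations from the group mean correlated at 0.104 to 0.710 for mice of 1 slide and at -0.573 to 0.385 for others. The best match was on the same slide for 4 of the 5 control mice. Control mouse 5 correlated at 0.104 with selenium mouse 5 and at 0.339 with selenium mouse 4.

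Genes named are the 12 higher and 12 lower with the smallest p among those pointing 1 way on 5 of 5 slides and above background on all 5 arrays of a group, the leading members of each list, and 20 fixed genes. Some named genes are not reported here. The comparison, its members and the 42 lists (1084 entries, 1062 on the array) were chosen with earlier results of these data known.

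Alternatives were no block, all 20 arrays, 19 arrays without the dim one, normexp with offset 50, quantile normalization, median scaling, no filter or a stricter filter on dim probes, the mean over probes, array weights, each slide or array left out, and the methods' t-test.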

Additional observations from a re-analysis of the deposited data

Results flagged for a closer look

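Among the 244 groups of 5 mice looked at, 1 control and 1 selenium group for each named gene, 17 held a mouse that stood apart from the other 4 by more than Dixon's 95% limit; chance gives about 1 in 20. Of these, 8 were selenium mouse 5. It was high for Gdf15 (2.77 against 0.39 to 0.89 in the other selenium mice), Mgst1 (2.73 against 1.04 to 1.28), Tlr7 (2.26 against 0.54 to 1.00) and Csf3r (0.56 against -0.95 to -0.63). It was low for Lig1 (3.46 against 4.43 to 4.78), Stip1 (1.52 against 2.11 to 2.32), Hsp90ab1 (5.50 against 6.02 to 6.11) and Brca2 (-1.98 against -0.96 to -0.56).

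Selenium mouse 2 was high for Psmb10 (5.81), Txnrd2 (1.08) and Klrg1 (3.104), selenium mouse 4 was low for Txnrd1 (3.70), and selenium mouse 1 was high for Pik3ip1 (1.17). In the control group, mouse 1 was high for Stat3 (7.72) and low for Ahr (2.12), and mouse 4 was high for Hnf4a (-2.72) and low for Egr1 (1.83).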

How the results depend on the processing

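No alternative changed the call: limma found 0 genes at an adjusted p under 0.05 in the 26 settings run, and the methods' t-test called 0 of 43379 spots, with 1095 at an unadjusted p under 0.05. The count of 1463 genes at an unadjusted p under 0.05 became 557 with no replicate block, 331 with all 20 arrays, 947 with the 19 arrays and 613 after normexp; the pairing of mice by slide is the replicate block. It ran from 961 (slide 2) to 1873 (slide 5) with single slides left out, and from 351 to 1314 with single arrays left out and no block, a choice made after seeing the data (617 without control mouse 1, 351 without control mouse 5); those fits have 9 arrays. For both compounds against ptaquiloside the count was 569 without slide 4, and for the interaction 633 without slide 4 and 210 without the block. List values were compared with a limit of 1 SD of the slide medians, which is too wide to show that they are robust. Fits without the block or with all 20 arrays repeat nearly the same differences, and 1 slide of 5 moves a mean only in part. Of 800 values of the 32 lists described, 797 stayed within that limit and 38 in 10 lists near 0 took the other sign. The exceptions were NK maturation genes, at -0.034 with probes averaged, and, with single slides or arrays left out, cytokine receptors (0.059 to 0.16) and NK transcription factors (0.0052 to 0.15). Of the 122 genes named, 5 changed sign somewhere, Sephs2 at 0.035 with median scaling; with single slides or arrays left out Sephs2 ran from -0.10 to 0.073, Gpx1 from -0.046 to 0.27, Gpx4 from -0.0091 to 0.23, Mt1 from -0.025 to 0.85 and Cd3e from -0.46 to 0.082. With 5 mice a group and 4 residual degrees of freedom, a missed threshold does not show that levels were equal, and signal near background limits Ahrr, Hnf4a, Comp, Pax5 and Mrc1.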

Other observations

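Genes of activated lymphocytes varied with the slide in both groups. Csf2, a myeloid growth factor that activated lymphocytes secrete, was at 0.61, 1.06, -0.71, -2.06 and -1.56 in control mice 1 to 5 and at 0.89, 1.68, -0.30, -0.65 and -0.59 in selenium mice 1 to 5. Areg, a growth factor of the epidermal growth factor family, was at -0.42, 0.85, -1.75, -2.81 and -2.55 in the control mice and at 0.43, 0.74, -0.94, -1.56 and -2.22 in the selenium mice. Mice 1 and 2 were the highest of both groups for Csf2 and Areg, and also for Ifng, Mt1 and Mt2. Averaged over its 24 tested members, the immediate early list deviated from its mean over the 10 arrays by 0.33, 0.64, -0.12, -0.59 and 0.01 in control mice and by 0.12, 0.37, -0.37, -0.51 and 0.13 in selenium mice. Mice 3 and 4 were thus the lowest of both groups, and mouse 2 the highest. Slide and mouse number cannot be told apart in these data, and no test was run on this pattern.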
